A study of Mus musculus with 48 samples.

Results

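Solute carriers are membrane proteins that move sugars, amino acids, ions, metals, nucleosides and metabolites across the cell surface and the membranes of organelles, and most of their mouse genes have symbols that start with Slc. Their genes were described here in single progenitor cells of the mouse fetal liver. The members were the rows of the deposited count table with the symbol Slc and a digit and with a read in at least 10 of the 48 cells. Of 374 such symbols among the 24062 genes in the table, 160 met the minimum, 93 were read in 1 to 9 cells and 121 in no cell. The rule left out 4 of the 160, Slc11a2, Slc25a37, Slc25a38 and Slc40a1, which carry iron or serve heme synthesis, so 156 members remained. The members were thus chosen by their detection in these same cells, so the number of cells that read them is a description.

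The 48 libraries were single cells of 1 group, labelled BFU-E, the burst-forming erythroid progenitor, from mouse fetal liver at embryonic day 14.5. Per the labels, cells carrying CD3, B220, Gr-1, Mac-1, CD34, CD41, Ter119, Sca-1 or CD16/CD32 were removed, c-Kit+ cells were kept, and the lowest 10% for CD71 were sorted and loaded. No strain, genotype, treatment or number of embryos is given for the loaded cells. The cells therefore counted as 1 sample, and every value below is a description with no test.

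In a progenitor that is about to divide and to fill with hemoglobin, amino acids, nucleosides and glucose enter through carriers of the plasma membrane, and carriers of the mitochondrial inner membrane exchange ADP for ATP and link the citric acid cycle with the cytosol. Red cell precursors later become rich in some carriers, among them the urea transporter Slc14a1, which bears the Kidd blood group in people. Gata1 encodes the transcription factor required for erythroid development, and Mpo encodes myeloperoxidase, a granule enzyme of neutrophil and monocyte precursors.

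Total counts ran from 246007 to 3211186 per cell, and 5180 to 7935 genes were detected in a cell. Levels are CPM, read counts divided by a library size that the TMM method adjusts for differences in composition and then set to a common total. In 2 cells C1qb, a macrophage complement gene, reached 1000 CPM or more, and these macrophage-like cells were set aside from the correlations, leaving 46. Among the 46, 26 cells had at least 10 CPM of Gata1 and under 1000 CPM of Mpo, here called the Gata1 range. Another 16 had at least 1000 CPM of Mpo and under 10 CPM of Gata1, here called the Mpo range, while 2 cells passed both limits and 2 neither. These are ranges of 2 genes, not cell types. Within 2-fold of the Gata1 limit lay 3 cells, and within 2-fold of the Mpo limit lay 5. To check the label, marker lists were summed without Gata1 and Mpo, which define the ranges. The 11 other erythroid genes had a median sum of 2498 CPM (387 to 7318) in the Gata1 range and 99.7 CPM (7.87 to 2450) in the Mpo range. The 11 other neutrophil and monocyte genes ran the other way, at 15.4 CPM (1.48 to 1296) and 2355 CPM (242 to 22525). Cells labelled BFU-E thus had these erythroid genes mainly in the Gata1 range and the myeloid genes mainly in the Mpo range, with values that overlap. Cd34 and Fcgr3, whose proteins CD34 and CD16 the sort selected against, had rhos of 0.64 and 0.85 with Mpo across the 46 cells. Macrophage genes summed to medians of 4.25 CPM (0 to 2308) in the Gata1 range and 17.1 CPM (0 to 92.1) in the Mpo range. Megakaryocyte genes summed to 188 CPM (0 to 2600) and 81 CPM (2.08 to 2289). Mast cell and basophil genes summed to 2.69 CPM (0 to 2253) and 255 CPM (1.24 to 1879), so single cells of both ranges had high sums. Of the 7 genes of the mast cell and basophil list, 2 were read in at least 10 cells. Tpsb2, Prss34, Ms4a2 and Fcer1a had no read in the Mpo range, so its sum rests on the remaining few.

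A cell read between 71 and 110 of the 156 members, with a median of 91. At 10 CPM or more the number fell to between 26 and 59, with a median of 41.5 over the 46 cells. Reads in all 48 cells were found for 7 members: the mitochondrial phosphate carrier Slc25a3, the ADP/ATP carriers Slc25a4 and Slc25a5, the nucleoside transporter Slc28a3, Slc35e2, the taurine transporter Slc6a6, and Slc7a14. A further 27 members were read in 40 to 47 cells, 71 in 20 to 39 and 51 in 10 to 19. The median member was read in 26 cells, against 33 for the 9707 genes of the table that met the same minimum. Many of the reads were low in level, since 36 members never reached 100 CPM and 9 never reached 10 CPM in the 46 cells. Those 9 were Slc12a8, Slc1a2, Slc2a10, Slc30a8, Slc43a2, Slc4a4, Slc5a12, Slc6a17 and Slc8a3. Just inside the minimum, Slc39a11, Slc8a3, Slc25a23, Slc4a4 and Slc9a9 were read in 10 cells. Just outside it, Slc30a10, Slc35b3, Slc7a7, Slc29a2, Slc25a25, Slc23a2, Slc9b2 and Slc10a3 were read in 9. Genes near this limit were not uniformly low, since Slc7a7 reached 1985 CPM and Slc9a9 1047 CPM in their highest of 48 cells, while Slc4a4 reached 2.39 CPM. The 1047 CPM of Slc9a9 was in a macrophage-like cell. In the other 46 cells Slc9a9 was read in 9, with a highest of 132 CPM, so it met the minimum only through that macrophage-like cell.

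**Figure D1:**
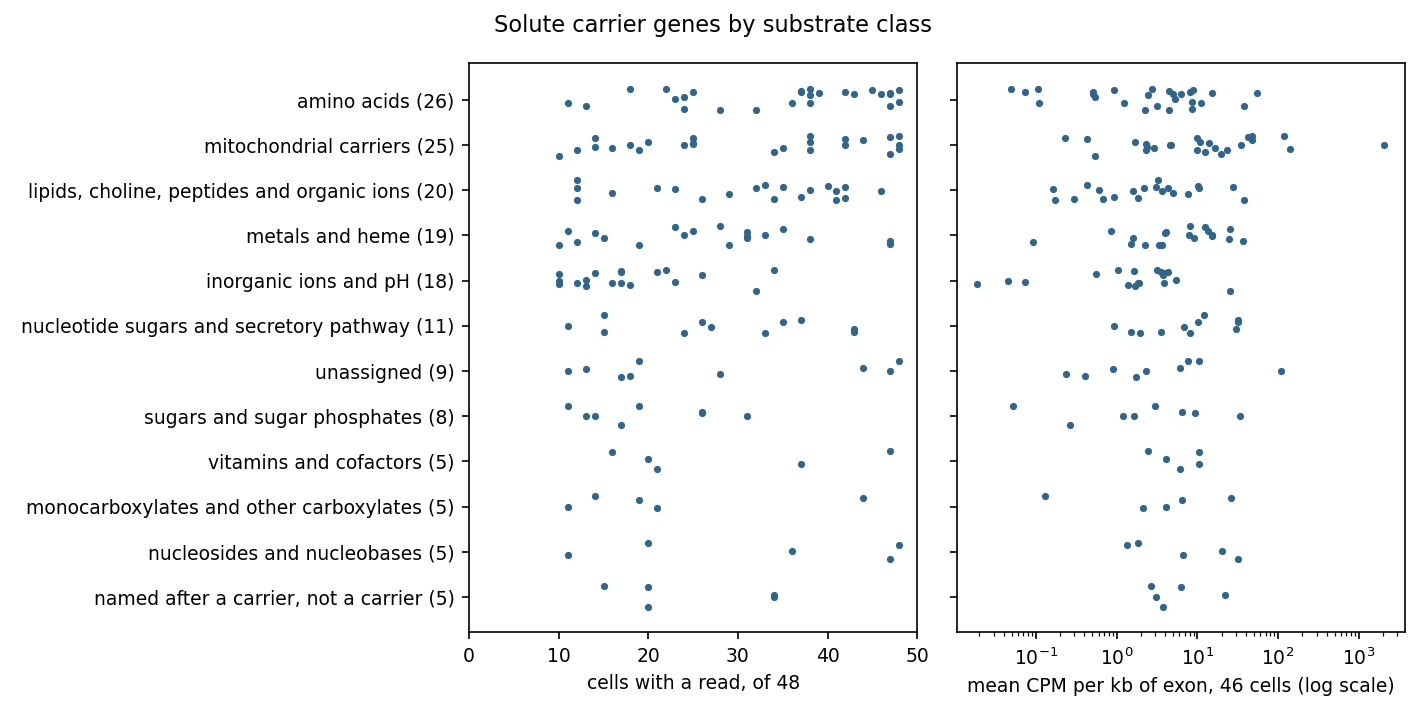
The 156 members by substrate class, with a point for each gene. The left panel gives the cells of 48 with a read and the right panel the mean CPM per kilobase of exon over 46 cells on a log axis. Amino acid and mitochondrial carriers hold the most members read in 40 or more cells, with 9 of 26 and 8 of 25, and Slc25a5 lies alone at the right.

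Symbols were counted by substrate class without the 4 that the rule left out. The amino acid class had 26 members among 56 symbols in the table, and the mitochondrial class had 25 among 45. The inorganic ion and pH class had 18 members among 56 symbols, the class of organic ions, lipids, peptides and urea 20 among 73, and metals and heme 19 among 32. Nucleotide sugar carriers of the secretory pathway were read most completely, with 11 members among 13 symbols. Sugar carriers had 8 members among 25 symbols, and monocarboxylate carriers 5 among 18. Nucleoside carriers had 5 among 9 and vitamin carriers 5 among 10. The substrate of 9 members was not assigned, and 5 rows (Slc2a4rg-ps, Slc36a1os, Slc4a1ap, Slc7a6os and Slc9a3r1) carry an Slc symbol without being carriers. The median member of the amino acid class was read in 37.5 cells, that of the mitochondrial class in 34, that of the ion class in 17 and that of the sugar class in 18.

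Levels between genes were compared as CPM per kilobase of exon. Slc25a5, which exchanges ADP for ATP across the mitochondrial inner membrane, stood first at a mean of 2073 CPM per kilobase. Its own level was 3413 CPM ± 1323 (SD over 46 cells), with a lowest of 586, a median of 3403 and a highest of 6164. It supplied 33.9% of the members' summed CPM in the median cell, and that sum had a median of 10399 CPM (4597 to 15619). Its paralog Slc25a4 followed at 141 CPM per kilobase, the phosphate carrier Slc25a3 at 118 and Slc35a4 at 110. Slc25a5 exceeded Slc25a4 per kilobase in 48 of 48 cells, by at least 4.25-fold and by 15.9-fold in the median cell. The next were Slc38a2, a sodium-coupled importer of neutral amino acids, at 55.2 CPM per kilobase, the peroxisomal carrier Slc25a17 at 47.9, Slc25a11 at 47, Slc25a39, a mitochondrial glutathione carrier, at 41.9, Slc14a1 at 38.3 and Slc3a2, the heavy chain of amino acid exchangers, at 38. How reads that match several copies were counted is not given in the sources used here, so the levels of near-identical genes such as Slc25a4 and Slc25a5 are uncertain.

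**Figure D2:**
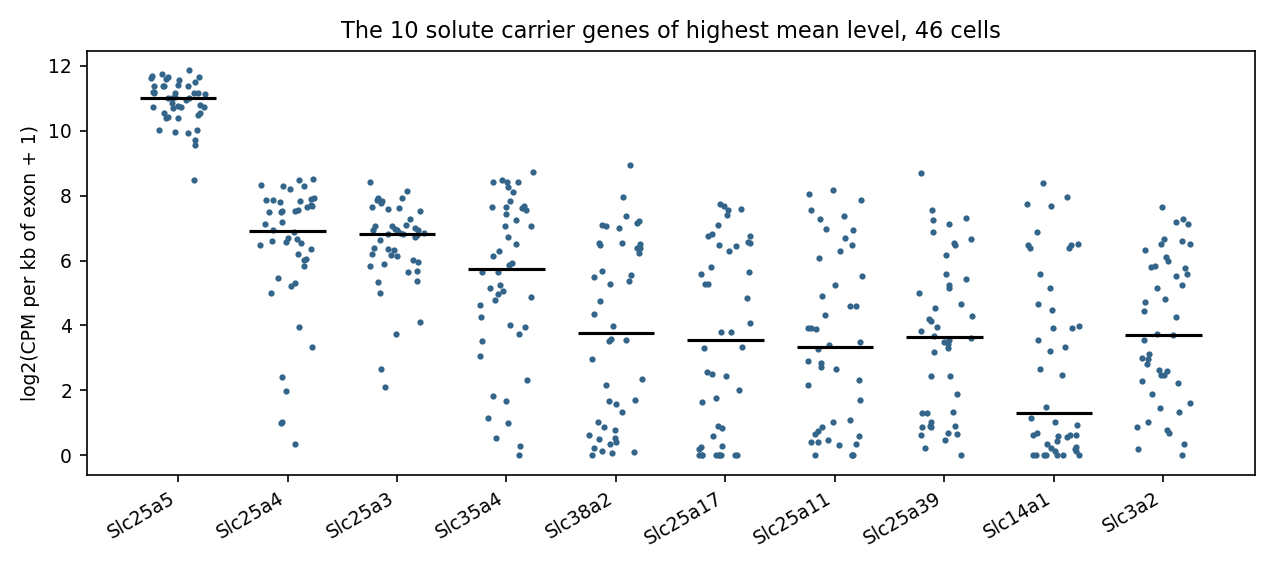
Levels of the 10 members of highest mean CPM per kilobase of exon in the 46 cells, on a log2 scale with a pseudocount of 1. Each point is a cell and each bar the median. Slc25a5 stands above the other genes, and the genes from Slc38a2 onward range from near 0 to above 7.

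Abundance and evenness went together for a few members. Among the 40 members with a mean of at least 50 CPM, the coefficient of variation was lowest for Slc25a5 at 0.388, Slc25a3 at 0.654 and Slc25a4 at 0.743. Slc7a14 at 0.795 and the zinc importer Slc39a1 at 0.853 came next. Slc7a14, a cationic amino acid transporter relative, was at 10 CPM or more in 46 of 46 cells, with a mean of 87.4 CPM ± 69.5 and a median of 72. The zinc carrier Slc30a7 was the most uneven at 4.04, followed by Slc25a44, a mitochondrial carrier of branched-chain amino acids, at 3.05. Slc30a7 had a median of 0.67 CPM and reached 2371 CPM in 1 cell.

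Gata1 and Mpo opposed each other across the 46 cells, with a Spearman rho of -0.61. The cells share 1 preparation, and rank correlations across them carry their depth and their zeros, so each rho below is a description. A member was said to follow Gata1 or Mpo at a rho of 0.4 or more. With Gata1, 4 of 156 members (2.56%) did so, against 1.69% of 9706 genes of the table. With Mpo, 4 of 156 (2.56%) did so, against 3.33%. At a rho of -0.4 or less, 2 members opposed Gata1 (1.28%, against 2.05%) and 4 opposed Mpo (2.56%, against 1.41%). These shares lie near the background and are not a result about solute carriers as a group. The median rho of the members was 0.03 with Gata1 and 0.00 with Mpo, and over all those genes 0.02 and 0.00. Both rhos lay between -0.2 and 0.2 for 93 members (59.6%).

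**Figure D3:**
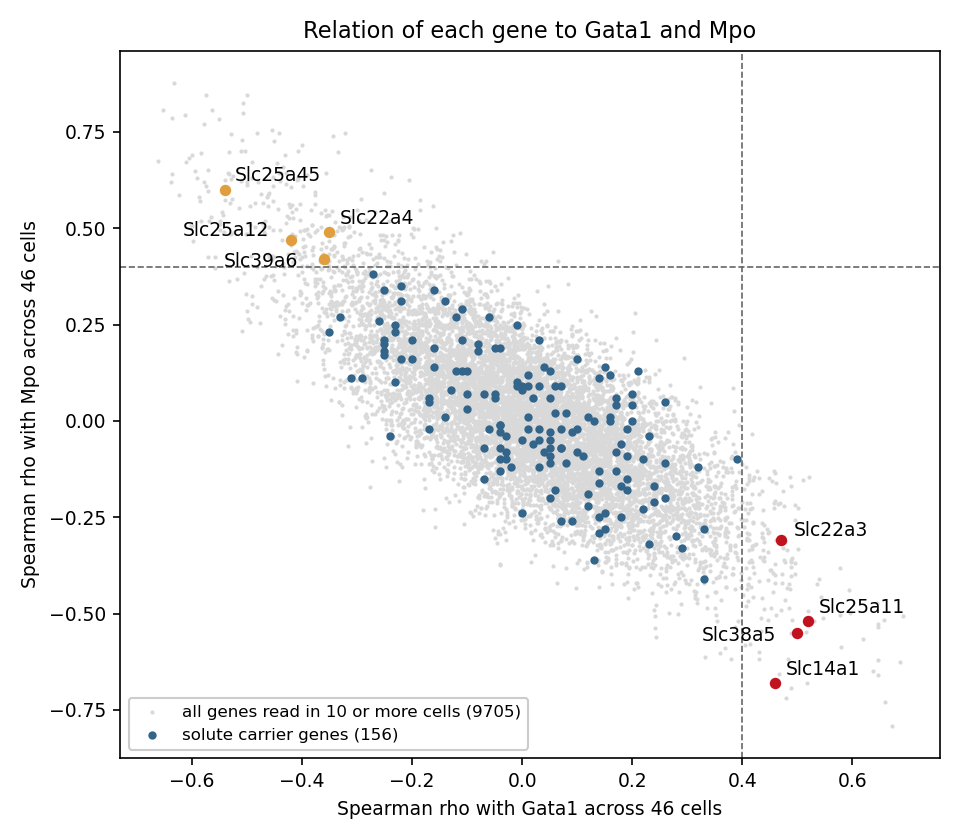
Spearman rho with Gata1 (horizontal) and with Mpo (vertical) across 46 cells. Grey points are genes of the table read in 10 or more cells, blue points the 156 members, and dashed lines a rho of 0.4. The 4 members in red follow Gata1, the 4 in orange follow Mpo, and the other members lie within the grey cloud.

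The 4 members that followed Gata1 fell in 3 substrate classes. Slc25a11 exchanges 2-oxoglutarate for malate across the mitochondrial inner membrane (rho 0.52). Slc38a5 is a plasma membrane carrier of glutamine and other neutral amino acids (rho 0.50). Slc22a3 is an organic cation transporter that handles monoamines such as histamine (rho 0.47), and Slc14a1, of the same class, carries urea (rho 0.46). The 4 that followed Mpo were 2 mitochondrial carriers, Slc25a45 (rho 0.60) and the aspartate/glutamate carrier Slc25a12 (rho 0.47), the ergothioneine and carnitine transporter Slc22a4 (rho 0.49), and the zinc importer Slc39a6 (rho 0.42). Just outside the limit lay Slc45a3 (0.39) and the mitochondrial folate carrier Slc25a32 (0.33) with Gata1. The folate importer Slc46a1 (0.38) and the sodium bicarbonate cotransporter Slc4a7 (0.35) lay just outside it with Mpo.

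Promoters of 4 of these genes are printed, those of the 2 members of highest rho with Gata1 and of the 2 mitochondrial carriers that followed Mpo. Each window runs from 250 bases before to 30 bases after the RefSeq start in GRCm38.p6, 5′ to 3′ on the gene's strand. Capitals mark a word bound by GATA factors or one bound by the myeloid factor PU.1, on either strand. The GATA word was AGATAA with its variants, which are AGATAG and, with another first base, TGATAA and also TGATAG. The PU.1 word was GAGGAAG. These motifs do not overlap each other here. The windows are Slc25a11 at chr11:70647010-70647289 on the minus strand, Slc38a5 at chrX:8271131-8271410 on the plus strand, Slc25a45 at chr19:5877572-5877851 on the plus strand and Slc25a12 at chr2:71367726-71368005 on the minus strand.
Slc25a11: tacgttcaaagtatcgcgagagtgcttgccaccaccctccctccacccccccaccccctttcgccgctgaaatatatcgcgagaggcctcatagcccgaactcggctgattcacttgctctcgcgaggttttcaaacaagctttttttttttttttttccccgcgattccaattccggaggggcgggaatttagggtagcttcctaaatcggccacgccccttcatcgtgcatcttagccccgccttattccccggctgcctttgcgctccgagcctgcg
Slc38a5: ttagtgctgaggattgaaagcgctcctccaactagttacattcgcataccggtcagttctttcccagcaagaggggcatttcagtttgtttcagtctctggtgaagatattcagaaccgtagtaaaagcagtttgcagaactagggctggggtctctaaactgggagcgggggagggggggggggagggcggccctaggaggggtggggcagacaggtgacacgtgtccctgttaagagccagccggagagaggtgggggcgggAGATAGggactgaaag
Slc25a45: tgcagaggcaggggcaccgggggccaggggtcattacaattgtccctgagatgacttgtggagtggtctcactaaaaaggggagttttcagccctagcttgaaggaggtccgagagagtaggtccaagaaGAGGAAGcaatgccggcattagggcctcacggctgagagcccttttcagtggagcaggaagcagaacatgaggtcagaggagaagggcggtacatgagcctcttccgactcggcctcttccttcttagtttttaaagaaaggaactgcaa
Slc25a12: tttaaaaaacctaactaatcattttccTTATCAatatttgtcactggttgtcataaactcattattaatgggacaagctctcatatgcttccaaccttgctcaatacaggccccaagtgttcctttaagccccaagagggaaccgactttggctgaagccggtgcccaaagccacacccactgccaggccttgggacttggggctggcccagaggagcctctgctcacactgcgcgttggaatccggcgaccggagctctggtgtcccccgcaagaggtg
Slc38a5, which followed Gata1, held 1 GATA word, within the 30 bases after its start, and Slc25a12, which followed Mpo, held 1 as well. Slc25a45 held the PU.1 word 1 time, and Slc25a11, Slc22a3 and Slc22a4 held neither. The followers Slc14a1 and Slc39a6 have no window here. A GATA word was found in 28.7% of 32851 RefSeq promoter windows of this length and in 37 of the 156 windows (23.7%) of the 118 members that have one in RefSeq. For the PU.1 word the shares were 12.2% and 10.3% (16 windows). A match is a word in the sequence and not a measured binding site.

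Slc25a11 (chromosome 11, 70644196 to 70647479, minus strand, GRCm38) was the Gata1 follower read in most cells, 44 of 48. In the Gata1 range its lowest, median and highest levels were 1.25, 78.9 and 614 CPM, and in the Mpo range 0, 1.27 and 79.1 CPM. The ranges overlap, yet the highest cell of the Mpo range stood near the median of the Gata1 range. At 10 CPM or more it was found in 21 of 26 cells (80.8%, exact 95% Clopper-Pearson interval 60.6 to 93.4) and in 6 of 16 (37.5%, 15.2 to 64.6). Such intervals cover counting error only. Its rho with Mpo was -0.52. Its exons overlap those of Rnf167 on the opposite strand over 189 bases, 8.92% of their length, and reads there cannot be told apart without strand. Rnf167 had a rho of 0.00 with Gata1 and -0.21 with Slc25a11.

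Slc38a5 (chromosome X, 8271133 to 8280179, plus strand) was a rarer transcript, read in 24 of 48 cells. Its lowest, median and highest levels were 0, 2.41 and 206 CPM in the Gata1 range and 0, 0 and 1.42 CPM in the Mpo range. It reached 10 CPM in 10 of 26 cells of the Gata1 range (38.5%) and in 0 of 16 of the Mpo range, which allows a share of up to 18.8% by a limit of 3 counts and 20.6% by the exact interval. All of its cells at 10 CPM or more were thus in the Gata1 range, although most cells of that range were below it. Among genes with other roles, its rho was 0.63 with the erythroid factor Klf1 and -0.53 with Cd34.

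Slc22a3 (chromosome 17, 12418960 to 12507704, minus strand) had lowest, median and highest levels of 0, 21 and 398 CPM in the Gata1 range and 0, 0 and 19.9 CPM in the Mpo range. It stood at 10 CPM or more in 15 of 26 cells (57.7%) and in 1 of 16 (6.25%). The cells outside both ranges had it too, at 32.7 and 79.8 CPM in the 2 cells past both limits and at 84.9 and 73.1 CPM in the 2 past neither. Its rho with Mpo, at -0.31, was the weakest of the 4. Its exons overlap 420 bases (9.31%) of the plasminogen gene Plg on the opposite strand, which had no read in these cells.

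Slc14a1 had the widest span of the 4. In the Gata1 range its lowest, median and highest levels were 0.541, 57.7 and 1324 CPM, and in the Mpo range 0, 0.567 and 84.1 CPM. It reached 10 CPM in 19 of 26 cells (73.1%) and in 1 of 16 (6.25%). In the 2 cells past both limits it stood at 2.11 and 0.363 CPM, and in the 2 past neither at 361 and 57.1 CPM. Of the 156 members it had the most negative rho with Mpo, -0.68, beside 0.46 with Gata1. Its rho was 0.70 with Car2, the carbonic anhydrase of early erythroid cells, 0.55 with the erythroid repressor Gfi1b, and 0.57 with Tgfbr3.

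**Figure D4:**
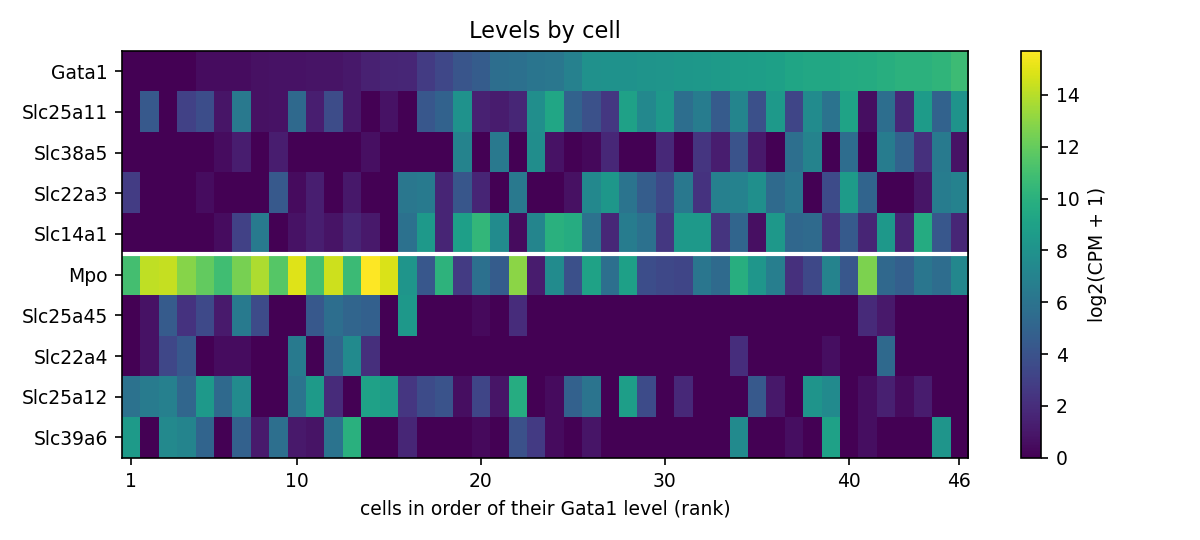
Levels of the 8 followers in the 46 cells ordered by Gata1 level, as log2(CPM + 1) in colour. Each column is a cell and each row a gene, with Gata1 and Mpo shown for orientation. Slc25a11 fills many cells at high Gata1, while Slc25a45 appears at low Gata1. Slc14a1 is low in several of the cells of highest Gata1, and its highest cell lies at intermediate Gata1.

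The same gap was seen as presence per cell. Every cell of the Gata1 range had at least 1 of the 4 Gata1 followers at 10 CPM or more: 4 cells had 1, 9 had 2, 9 had 3 and 4 had 4 of them. In the Mpo range 8 cells had none and 8 had 1. Since these genes were picked for their rho with Gata1, the counts show how the choice looks in single cells and support nothing further. Pairs among them were not equally alike. Slc25a11 and Slc14a1 had a rho of 0.53 with each other and stood at 10 CPM together in 17 cells, while Slc22a3 had 0.05 with Slc38a5, 0.15 with Slc14a1 and 0.20 with Slc25a11.

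Inside the cells with at least 10 CPM of Gata1, none of these genes followed the level of Gata1. Over those 28 cells the rho with Gata1 was 0.12 for Slc25a11, 0.17 for Slc38a5, 0.15 for Slc22a3 and -0.40 for Slc14a1. The relation was thus smaller among these cells, and that of Slc14a1 turned direction. Because the cells were chosen by Gata1 itself, its narrower span can weaken a rho. Why the rho of Slc14a1 turned direction was not tested. These values therefore cannot say where the relation across the 46 cells lies. A score of G2/M genes moved with these members, at a rho of 0.52 for Slc14a1, 0.43 for Slc25a11, 0.29 for Slc38a5 and 0.22 for Slc22a3. The score itself had a rho of 0.29 with Gata1 and -0.40 with Mpo, and with the score held constant the partial rho with Gata1 was 0.46 for Slc25a11, 0.45 for Slc38a5, 0.44 for Slc22a3 and 0.38 for Slc14a1. The median cell had 6866 genes detected and 2074378 counts in the Gata1 range and 6662 genes and 1659078 counts in the Mpo range.

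Slc25a45 (chromosome 19, 5877808 to 5885878, plus strand), a member of the mitochondrial carrier family, had the highest rho with Mpo of the members. It was read in 18 of 48 cells. Its lowest, median and highest levels were 0, 0 and 1.07 CPM in the Gata1 range and 0, 6.94 and 84 CPM in the Mpo range. It reached 10 CPM in 0 of 26 cells of the Gata1 range, which allows a share of up to 11.5% by a limit of 3 counts and 13.2% by the exact interval, and in 7 of 16 of the Mpo range (43.8%). Its highest level of the 46, 336 CPM, was in 1 of the 2 cells past neither limit, and a macrophage-like cell had 648 CPM. Its rho was 0.60 with the neutrophil protease gene Prtn3 and -0.54 with Gata1.

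Slc25a12 (chromosome 2, 71271063 to 71367749, minus strand) was more often present, in 34 of 48 cells. Its lowest, median and highest levels were 0, 0.656 and 444 CPM in the Gata1 range and 0, 62.4 and 506 CPM in the Mpo range. The tops of both ranges were alike, and the difference lay in how many cells had it: 12 of 16 (75%) at 10 CPM or more in the Mpo range and 7 of 26 (26.9%) in the Gata1 range. Its rho with Gata1 was -0.42.

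Slc22a4 (chromosome 11, 53983123 to 54028090, minus strand) rested on few cells, being read in 12 of 48. Its lowest, median and highest levels were 0, 0 and 39.7 CPM in the Gata1 range and 0, 0.432 and 186 CPM in the Mpo range. At 10 CPM or more it was found in 1 of 26 and 4 of 16 cells, so its rho of 0.49 compares a few cells with reads and many with none. Slc39a6 was read in 24 cells. It had lowest, median and highest levels of 0, 0 and 508 CPM in the Gata1 range and 0, 14.5 and 1007 CPM in the Mpo range, with 3 of 26 (11.5%) and 8 of 16 (50%) at 10 CPM or more.

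**Figure D5:**
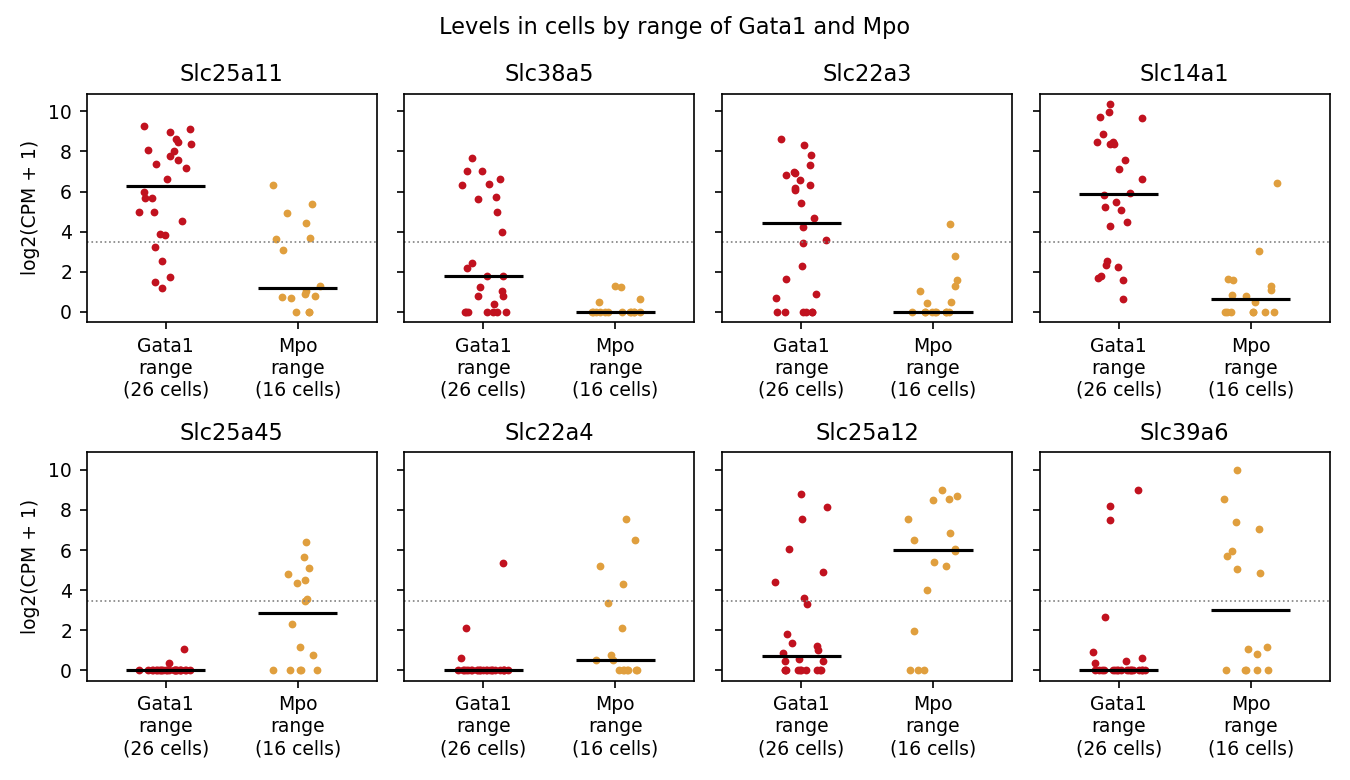
Levels of the 8 followers in the Gata1 range (26 cells) and the Mpo range (16 cells), as log2(CPM + 1), with a point for each cell a bar at the median and a dotted line at 10 CPM. The points of each gene overlap between the ranges. Slc38a5 does not rise above 1.42 CPM in the Mpo range, nor Slc25a45 above 1.07 CPM in the Gata1 range.

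Among the 16 cells of the Mpo range, 6 had 1 of the 4 Mpo followers at 10 CPM or more, 5 had 2 and 5 had 3. In the Gata1 range 16 cells had none, 9 had 1 and 1 had 2. Slc25a45 and Slc22a4 had a rho of 0.51 with each other, and Slc25a12 and Slc39a6 had 0.04. Over the 18 cells with at least 1000 CPM of Mpo, the rho with Mpo was 0.13 for Slc25a45, 0.33 for Slc22a4, 0.37 for Slc25a12 and -0.19 for Slc39a6. As with Gata1, the relation was smaller or turned among the cells past the limit, where the span of Mpo is narrower by choice. Why the rho of Slc39a6 turned was not tested.

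The count at 10 CPM gave an overlapping selection without ranks, in which Slc38a5, Slc22a4 and Slc39a6 were missing. Its ranges come from the same Gata1 and Mpo levels in the same cells, so the overlap is no separate support. The share of cells at 10 CPM or more was higher in the Gata1 range by 40 percentage points or more for 3 members (1.92%), Slc14a1, Slc22a3 and Slc25a11, against 1.10% of 9705 genes of the table. It was higher in the Mpo range by as much for 3 members (1.92%), Slc25a12, Slc25a45 and Slc25a46, against 1.81%. Slc25a46, an outer membrane protein of mitochondria in the same family, reached 10 CPM in 13 of 16 cells of the Mpo range and 9 of 26 of the Gata1 range. Its rho with Mpo was 0.34. Both shares are near the background.

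Mitochondrial carriers had followers on both sides, as did the class of organic ions, lipids, peptides and urea. Slc25a11 and Slc25a12 each serve the malate-aspartate shuttle, which moves reducing equivalents into mitochondria, and they had opposite rhos with both Gata1 and Mpo. With each other their rho was -0.22, and 13 cells had both at 10 CPM or more, 15 Slc25a11 alone and 8 Slc25a12 alone. The second aspartate/glutamate carrier, Slc25a13, had a rho of -0.20 with Gata1, 0.16 with Mpo and -0.31 with Slc25a11. These pairs were chosen after the values were seen. Of the abundant carriers of the class, Slc25a5 had a rho of -0.04 with Gata1 and -0.13 with Mpo, Slc25a4 had 0.07 and -0.26, and Slc25a3 had 0.04 and -0.08. Slc25a17 had 0.24 and -0.17, and Slc25a39 had -0.02 and -0.12. Summed over its 25 members, the class had a median of 6029 CPM (1031 to 10655) in the Gata1 range and 5010 CPM (3036 to 7598) in the Mpo range, and the ranges overlap.

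Amino acid carriers were the largest class and had 1 follower, Slc38a5. The median rho of its 26 members was 0.00 with Gata1 and 0.06 with Mpo. Slc7a5, the light chain of the leucine exchanger, had a rho of 0.26 with Gata1 and the proton-coupled amino acid transporter Slc36a1 one of -0.26. The abundant importers Slc38a2 (487 CPM ± 782) and Slc38a1 (109 CPM ± 153) had -0.01 and -0.08. The heavy chain Slc3a2 had 0.02 with Gata1 and a rho of 0.19 with its partner Slc7a5, and 16 cells had both at 10 CPM or more, 19 Slc3a2 alone and 4 Slc7a5 alone. With the light chains Slc7a6 and Slc7a11 its rho was -0.02 and 0.07. Summed, the class had medians of 1127 CPM (241 to 3596) in the Gata1 range and 1082 CPM (82.5 to 2228) in the Mpo range.

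Organic ion carriers had relatives on opposite sides. Slc22a3 and Slc22a4 had a rho of -0.43 with each other, and no cell had both at 10 CPM or more, against 20 with Slc22a3 alone and 5 with Slc22a4 alone. This pair, too, was chosen after its values were seen. Slc22a3 was picked for following Gata1 and Slc22a4 for following Mpo, which oppose each other. Few cells had Slc22a4 at that level, so the lack of a shared cell shows nothing further. The carnitine transporter Slc22a5, the close relative of Slc22a4, was read in 12 cells and had -0.06 with Gata1 and -0.02 with Mpo. Slc15a3, a lysosomal peptide and histidine carrier, opposed Mpo at -0.41 but reached 10 CPM in 1 of 46 cells. The vesicular monoamine transporter Slc18a2 was at 10 CPM or more in 27 of 46 cells, at 145 CPM ± 230, and had 0.12 and 0.01. The choline carrier Slc44a2 had -0.23 and 0.23.

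Among the 19 metal and heme members, from which the rule left out Slc11a2 and Slc40a1, Slc39a6 followed Mpo and none followed Gata1. Its zinc-importing relative Slc39a10 had -0.24 with Gata1 and -0.04 with Mpo, and Slc39a8 had 0.28 and -0.30. Slc39a6 and Slc39a8 were at 10 CPM or more together in no cell, with 12 and 6 cells each alone, a pair picked after its values were seen. Their rho with each other was -0.12, and with so few cells at that level the lack of a shared cell says little. Slc39a1 was at 10 CPM or more in 42 of 46 cells and had -0.04 and -0.01. The copper importer Slc31a1 had a rho of 0.27 with Mpo, and the endosomal heme transporter Slc48a1 had 0.12 with Gata1. The class summed to a median of 583 CPM (129 to 1830) in the Gata1 range and 866 CPM (386 to 2762) in the Mpo range.

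No follower of either gene was found among sugar, monocarboxylate, nucleoside, nucleotide sugar, vitamin and inorganic ion carriers. The glucose transporters Slc2a1 and Slc2a3 were each read in 26 cells, had rhos of 0.09 and 0.24 with Gata1, and had 0.34 with each other. The lactate carriers Slc16a1 and Slc16a3 had 0.07 and 0.14 with Gata1 and 0.30 with each other. The nucleoside transporter Slc29a1 was at 10 CPM or more in 30 of 46 cells, at 127 CPM ± 193, and had 0.03 and -0.05. Slc43a3, a purine nucleobase carrier, had -0.31 with Gata1. In the nucleotide sugar class the highest rhos were 0.23 with Gata1, for the GDP-fucose carrier Slc35c1, and 0.29 with Mpo, for Slc35b4. Of the ion carriers, the cotransporter of sodium, potassium and chloride Slc12a2 had 0.29 with Gata1 and -0.33 with Mpo, and the sulfate carrier Slc26a2 had -0.35 and 0.23. Vitamin carriers summed to medians of 27 CPM in the Gata1 range and 112 CPM in the Mpo range, and nucleotide sugar carriers to 297 and 522 CPM, with overlapping values in both cases.

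Of the 10 paralog pairs examined, 5 had a rho between -0.12 and 0.05. Slc25a4 and Slc25a5 had the highest, 0.50, ahead of the glucose and lactate carrier pairs at 0.34 and 0.30. Slc43a1 and Slc43a3 had 0.25 and Slc38a1 and Slc38a2 0.21. Slc7a1 and Slc7a5 (-0.10), Slc29a1 and Slc29a3 (-0.09), Slc20a1 and Slc20a2 (-0.04), Slc25a12 and Slc25a13 (-0.12) and Slc39a1 and Slc39a10 (0.05) lay near 0. The chaperone Bsg, which brings lactate carriers to the surface, had 0.13 with Slc16a1 and 0.16 with Slc16a3.

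Transporters that have other symbols were listed for comparison, 28 in all, of which 24 were read in at least 10 cells. With Gata1, 2 of these 24 followed (8.33%, against the 1.69% of all genes), the sphingosine-1-phosphate exporter of red cells Mfsd2b (0.64) and the ammonium channel Rhag (0.49). With Mpo, 1 followed (4.17%, against 3.33%), Emb, a chaperone of lactate carriers (0.78). The list was made by hand, and its counts are too small to set against the background. Emb had a rho of -0.13 with Slc16a1 and -0.09 with Slc16a3, the carriers it can accompany. The median over the list was 0.07 with Gata1 and 0.05 with Mpo.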

How the data were processed

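Single-cell RNA was measured in 48 cells of 1 group. Per the labels, cDNA came from SMART-Seq chemistry on a Fluidigm C1 chip and libraries from Nextera XT. The submitters' processing notes name TopHat2 2.0.12, featureCounts 1.4.6 of Subread and mm10. The authors deposited raw counts per gene and a table of log2 normalized values, which served as an alternative. The 48 columns of the count table are run codes not found among the sample titles, so single cells could not be tied to a sample.

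CPM used TMM library sizes from edgeR 4.0.16 (factors 0.419 to 1.70). Python 3.11.15 with pandas 2.3.3 and numpy 2.4.6 gave Spearman's rho over all 9707 genes read in at least 10 cells, after a check on simulated data. Log2 values had a pseudocount of 1. Positions and exon lengths come from GENCODE for GRCm38, and promoters from RefSeq.

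The members and lists were chosen with earlier results of these data known, and substrate classes were assigned by hand. Named genes were members at a rho of 0.4 or more, the highest and lowest of each class, the 10 highest per kilobase, members beside a limit or a class count, and listed pairs. Pairs added later are named as such. Reads lack molecular identifiers, so intervals cover counting error only. Alternatives varied depth, scaling, cells, thresholds and the measure of correlation.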

Additional observations from a re-analysis of the deposited data

How the results depend on the processing

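Of the 156 members, a minimum of 5 cells gave 191, a minimum of 20 cells 105, 5 reads in 10 cells 107 and thinning every cell to the lowest total 112. The 4 followers of Gata1 became 2 with Pearson's r of log2(CPM + 10), 8 at a rho of 0.3, 1 at a rho of 0.5 and 1, Slc4a2, within the 28 cells with at least 10 CPM of Gata1. The 4 followers of Mpo became 2 after thinning, 1 with Pearson's r of log2(CPM + 10), 10 at a rho of 0.3 and 1 at a rho of 0.5. Pearson's r of log2(CPM + 1) also gave 4, of which 2 were of these 4, and within the 18 cells with at least 1000 CPM of Mpo none of the 5 was. Why the counts moved was not tested. Within the cells past each limit, Slc14a1 had -0.40 with Gata1 and Slc39a6 -0.19 with Mpo. Over the 11 alternatives not confined to cells past a limit, Slc25a11, Slc22a3 and Slc25a12 stayed at 0.4 or more in 11, with lowest values of 0.46, 0.41 and 0.42. Of these alternatives 1, a minimum mean of 5 CPM, only filtered members and could not change a rho. Slc38a5 and Slc25a45 did so in 10, Slc14a1 and Slc22a4 in 8, and Slc39a6 in 6, with a lowest value of 0.25 for Slc14a1. Other limits for the ranges and thinning changed the 6 members with a gap of 40 points to between 5 and 8. No paired analysis was possible because the labels give 1 group. The depth of the shallowest cell, 246007 counts, limits what can be said of members with few reads.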

Other observations

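Some carriers stood higher in both macrophage-like cells than in any of the other 46 cells. This held for 6 of 156 members (3.85%), against 2.07% of the 9707 genes read in at least 10 cells: the phagosomal metal transporter Slc11a1 at 830 and 2908 CPM, against at most 27.4, the lysosomal peptide carrier Slc15a3 at 3547 and 38.7, against at most 37.5, and the amino acid carriers Slc7a8 at 1092 and 1309, against at most 425, Slc43a2 at 71.9 and 559, against at most 7.3, and Slc1a2 at 132 and 428, against at most 5.78. The sixth was the sodium/calcium exchanger Slc8a1 at 74.8 and 60.2 CPM, against at most 42.4. Among the 46 cells Slc7a8 reached 10 CPM in 6, and the lower value of Slc15a3 lies close to the highest of the 46. These 6 were picked for this pattern. Both cells also had erythroid list sums of 730 and 1158 CPM and hepatoblast list sums of 6107 and 7164 CPM, whose part in these values was not tested. Neither list was present as a whole. Alb, Apoa1, Ttr and Hnf4a of the hepatoblast list had no read in either cell, nor had Epor, Zfpm1 and Tal1 of the erythroid list.

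Slc7a14, a gene best known from neural tissue, was at 10 CPM or more in every one of the 46 cells. It was at 73.3 and 415 CPM in the 2 macrophage-like cells. Its lowest, median and highest levels were 18, 73.9 and 306 CPM in the Gata1 range and 19.3, 51.6 and 205 CPM in the Mpo range. Its exons overlap those of no other annotated gene.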
